A study of Mus musculus with 2 samples.

Results

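The JAK kinases and STAT factors carry cytokine signals from the cell surface to the nucleus, and 9 of their genes were followed in mouse CD4+ T cells by the reads that cross their splice junctions. The 9 genes were taken by name: the kinase genes Jak1, Jak3 and Tyk2 and the factor genes Stat2, Stat3, Stat4, Stat5a, Stat5b and Stat6. They are 9 of 9645 genes that could be named from the junctions, and other JAK and STAT genes are not analysed here. CD4+ T cells, the helper lymphocytes, were enriched with magnetic beads from 4 pooled spleens of male C57BL/6JJcl mice. One group was held for 4 h on plates coated with antibodies to CD28, a costimulatory receptor, and to CD3e, part of the receptor for antigen, each at 2 ug/ml. The mock group was held for 4 h without antibody, and neither group carried any other treatment or allele, as far as the labels say. Total RNA of each group gave 1 library, so there is no replicate check and no p-value, and each difference below is a difference between the stimulated library and the mock library.

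A JAK kinase sits on the inner tail of a cytokine receptor chain. When a cytokine brings receptor chains together, the kinases phosphorylate each other, the receptor and the STAT proteins that dock on it, and the STAT proteins pair, enter the nucleus and bind DNA. In T cells the cytokine decides which members act: Jak1 and Jak3 work on the receptors that share the common gamma chain, Tyk2 on those for interleukin 12 and type I interferon, and the STAT factors differ in the genes and helper cell fates they serve.

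The mock library held 1147232 junction reads and the stimulated library 1341197. A gene's value is the sum of the reads on its named junctions, and its ratio is the stimulated over the mock value, each per 1000000 junction reads of its library. Intervals are 95% and exact (Clopper-Pearson). They cover counting error only, since reads are not independent molecules and a read that crosses several junctions may be counted at each. A gene was called higher or lower when it had at least 20 reads over both libraries, differed at least 2-fold and had an interval that excluded 1. Of 7209 genes with 20 reads, 17.1% were called higher and 25.1% lower, and the median log2 ratio was −0.21. Scaling by the trimmed mean of M values, which sets no change at a log2 ratio of −0.24, turned 1232 higher and 1809 lower genes into 1560 and 1410. All 8 listed T cell markers had reads (5352 mock and 6981 stimulated in all). Their median log2 ratio was −0.43, from Cd4 itself, which was called lower (650 and 285 reads, 2.67-fold), to Cd5 (766 and 1743); Cd3g and Cd3e stood at 0.532 and 0.579 and Trac, with the most reads, at 1.52. Other cell types had few reads: 188 and 160 for 9 B cell genes, 63 and 69 for 9 myeloid genes (among them Lyz2 with 15 and 0, Itgam with 10 and 1, Cybb with 5 and 19 and Csf2ra with 5 and 27, the last 2 called higher), 16 and 5 for the CD8 T cell gene Cd8b1, 7 and 17 for 2 erythroid genes, and 0 and 2 for the NK cell gene Klrk1. Only 1 of 2 listed CD8 T cell genes and 1 of 4 NK cell genes had a named junction, so those counts leave out the rest. What part these other cells, or the difference in Cd4, have in the values below was not tested. Fewer cells that express a gene and less of its RNA per cell cannot be told apart in such bulk libraries.

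Of the 9 members 4 were called lower in the stimulated library (Jak1, Tyk2, Stat4 and Stat5b), against 25.1% of all genes measured, and 0 were called higher, against 17.1%. This goes with the scaling: under the trimmed mean of M values 2 of 9 were lower (Jak1 and Stat5b) beside 19.6% of all genes, a share near that of all genes, and 0 were higher beside 21.6%. By role, 2 of 3 kinases and 2 of 6 factors were called lower. The other 5 members (Jak3, Stat2, Stat3, Stat5a and Stat6) did not reach 2-fold and were called neither higher nor lower. The intervals of Stat2 and Stat6, for counting error alone, excluded 1. The median log2 ratio of the 9 was −0.68, beside −0.21 for all genes. In total the members held 7781 mock reads (0.678% of the library) and 4843 stimulated reads (0.361%), and every member had at least 83 reads in each library. Of 199 introns in their most used transcripts, 191 had reads.

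**Figure D1:**
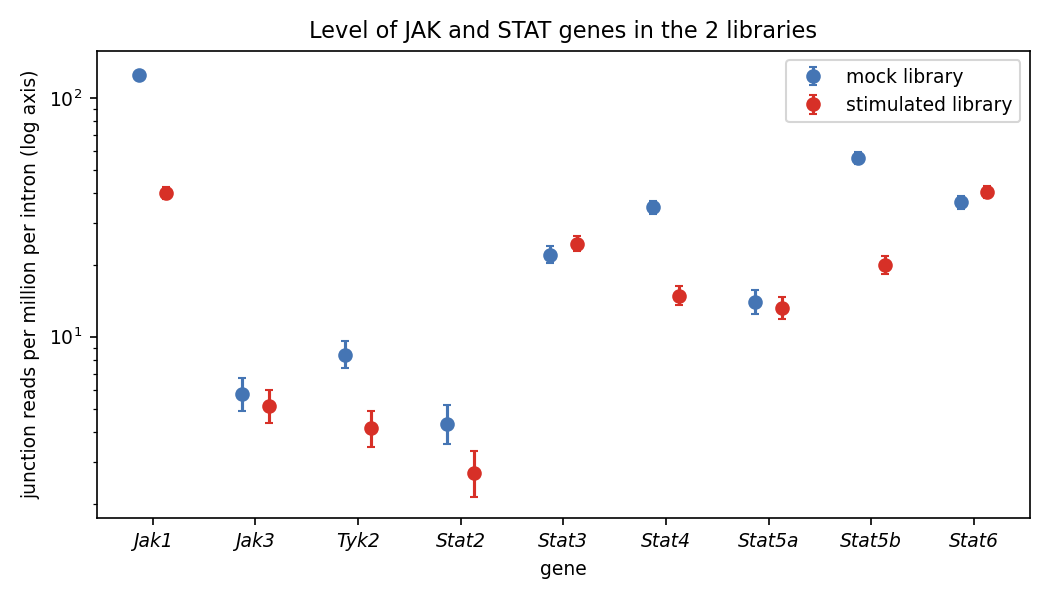
Level of the 9 genes in the mock library (blue) and the stimulated library (red), in junction reads per 1000000 per intron of the gene's most used transcript, on a log axis. Points are 1 library each and bars are exact 95% counting intervals. Jak1 stands apart at the top of the mock library at 124 and comes down to 40.05, level with Stat6 at 40.4.

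Per intron, which puts genes of unequal intron number on 1 scale, the order of the members differed between the libraries. In the mock library Jak1 led at 124 junction reads per 1000000 per intron, followed by Stat5b at 55.8, Stat6 at 36.5, Stat4 at 34.8, Stat3 at 22.1, Stat5a at 14.0, Tyk2 at 8.43, Jak3 at 5.74 and Stat2 at 4.32. Neighbours in that order had separate intervals except Stat6 with Stat4, and Jak3 with Stat2. In the stimulated library Stat6 (40.4) and Jak1 (40.05) shared the top, and Stat3 at 24.5, Stat5b at 19.97, Stat4 at 14.8, Stat5a at 13.2, Jak3 at 5.13, Tyk2 at 4.13 and Stat2 at 2.69 came after them. There the intervals of Stat6 and Jak1, of Stat4 and Stat5a, and of Jak3 and Tyk2 overlapped. Stat5b moved from the second place to the fourth, and Stat3 from the fifth to the third.

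**Figure D2:**
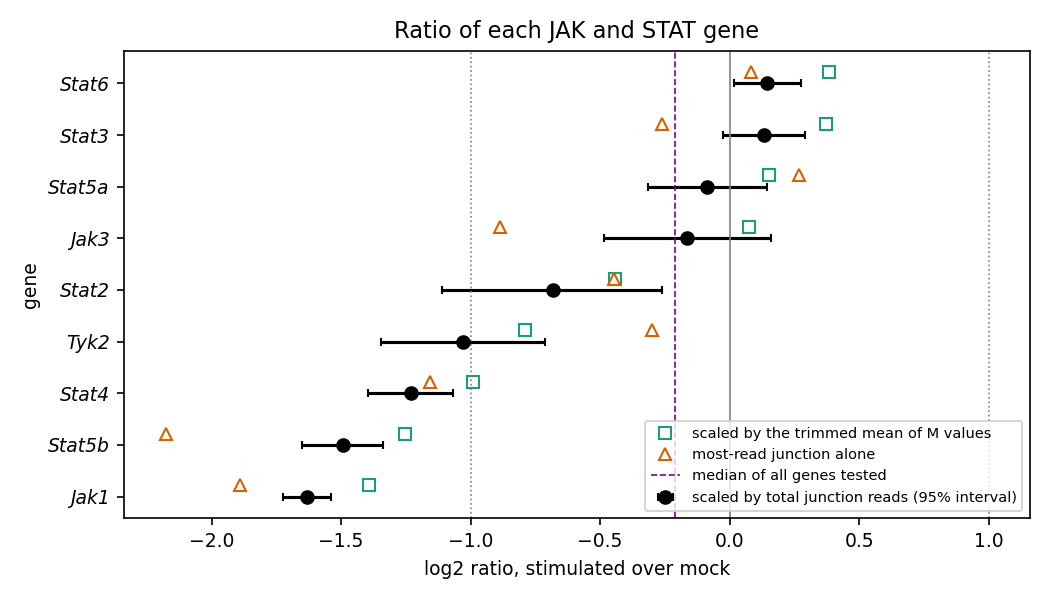
Log2 ratio (stimulated over mock) of each member, lowest at the bottom, with its exact 95% interval (black), the same after scaling by the trimmed mean of M values (squares) and the ratio of its most-read junction alone (triangles). Dotted lines mark 2-fold differences and the dashed line the median of all genes tested. Jak1, Stat5b, Stat4 and Tyk2 lie left of the 2-fold line when scaled by total junction reads.

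Among the kinases, Jak1 (chr4:100826196-100937646 in mm9 from its first to its last junction, minus strand) serves most cytokine receptors of T cells. It had 3421 mock reads and 1290 stimulated reads and was 3.10-fold lower (2.91 to 3.31), a log2 ratio of −1.63. This is the lowest ratio of the 9, at percentile 13.5 of all genes tested. The difference ran along the whole gene: all 24 of its introns lay below 1, and for 23 of them the interval excluded 1. Its most-read junction, intron 18 (chr4:100831514-100831619), had 438 and 138 reads. The lowest was intron 2 (chr4:100864279-100866387) with 41 and 3 reads, a log2 ratio of −3.998, and the highest was intron 10 with 68 and 49. The 12 introns nearest the 5′ end gave a ratio of 0.342 (0.310 to 0.378) and the 12 nearest the 3′ end 0.310 (0.284 to 0.337).

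Jak3 (chr8:74200483-74214070, plus strand) works with Jak1 on receptors that contain the common gamma chain. It had 158 mock and 165 stimulated reads, a ratio of 0.893 (0.714 to 1.12), and was called neither higher nor lower. The interval leaves room for a level up to 1.40-fold lower or 1.12-fold higher. Its log2 ratio was −0.16, and 0.08 under the trimmed mean of M values, so its sign turns on the scaling. Of its 5 junctions with 20 reads, 4 lay below 1 and each interval included 1. They ran from its most-read, intron 21 (chr8:74210025-74210753; 19 and 12 reads, log2 −0.89), to intron 17 (11 and 16 reads, log2 0.32). Jak1 held 89.8% (88.8 to 90.7) of the reads of these 3 kinases in the mock library and 81.2% (79.2 to 83.1) in the stimulated library, while the share of Jak3 was 4.15% (3.54 to 4.83) and then 10.4% (8.93 to 12.0). Jak3 over Jak1 was thus 2.77 times as high in the stimulated library (2.19 to 3.50), a ratio within each library that no scaling alters.

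Tyk2 (chr9:20909628-20935615, minus strand) is the kinase paired with the receptors for interleukin 12, interleukin 23 and type I interferon. It had 232 mock and 133 stimulated reads and was 2.04-fold lower (1.64 to 2.54), just past the threshold. Besides the 4-fold threshold, 4 settings ended its call: its log2 ratio of −1.03 became −0.79 under the trimmed mean of M values, −0.80 under the median of ratios, −0.87 from junctions seen in both libraries, and −0.30 from its most-read junction, intron 21 (chr9:20912482-20913217; 20 and 19 reads). Its ends differed. The 12 introns nearest the 5′ end had 122 and 44 reads, a ratio of 0.308 (0.213 to 0.439), and the 12 nearest the 3′ end had 110 and 89, a ratio of 0.692 (0.517 to 0.924). These intervals do not overlap, but they cover counting error only. The spread between junctions of Tyk2 was 1.77 times the counting variance, and the intervals were not widened for it. Intron 10 (chr9:20920475-20920576) had 17 mock reads and 0 stimulated reads, which is at least 4.82-fold lower by the limit of its interval and 6.62-fold lower when 3 reads stand in for the 0. This intron, part of the 5′ total, was named for its 0, and it falls short of the 20 reads that a call needs. The junctions just downstream, introns 11 and 12, had 10 and 3 reads and 10 and 7. Among junctions with 20 reads the lowest ratio was at intron 3 (17 and 6 reads, log2 −1.73) and the highest at intron 20 (11 and 14, log2 0.12).

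**Figure D3:**
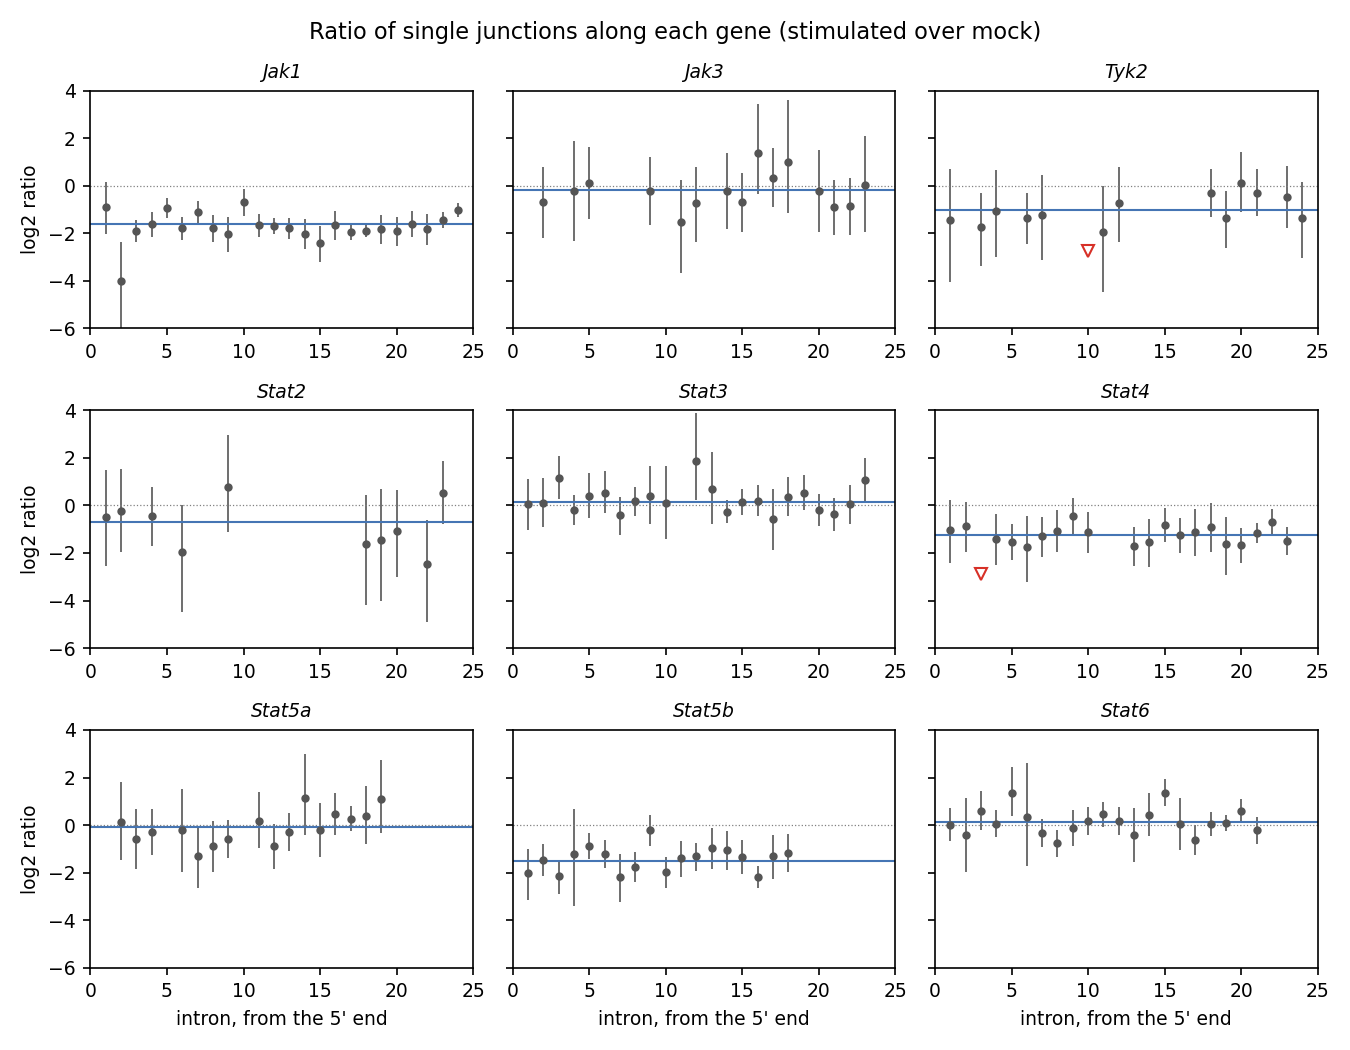
Log2 ratio (stimulated over mock) of single junctions along each gene, by intron number from the 5′ end, for introns of the most used transcript with at least 10 reads over both libraries. Bars are exact 95% intervals, blue lines the ratio of the whole gene, and open triangles introns with 0 stimulated reads, set against 3 reads; bars that run past the axis are clipped. Jak1, Stat4 and Stat5b lie below 0 at every intron shown, while the introns of Stat3 and Stat6 lie on both sides of it.

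Stat5b and Stat5a are near copies of each other that sit side by side on chromosome 11, with 10179 bp between their outermost junctions, and both act downstream of interleukin 2 and interleukin 7. Because reads could be placed on the wrong copy, the sequence at their junctions matters for their values. The most-read junction of both is the same exon join, Stat5b intron 16 (chr11:100645619-100648522, minus strand) and Stat5a intron 17 (chr11:100742500-100743051, plus strand), and 22 of the 60 bases around it differ. Bases were compared position by position from the join, without gaps, here and at the other joins. A stretch held by only 1 copy would shift the rest and so also count as differing bases. The lines below give 30 bases on either side of the join, 5′ to 3′, with the bases that differ in capitals, from GENCODE transcripts.
Stat5b intron 16: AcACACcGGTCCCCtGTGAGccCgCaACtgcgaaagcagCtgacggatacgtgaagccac
Stat5a intron 17: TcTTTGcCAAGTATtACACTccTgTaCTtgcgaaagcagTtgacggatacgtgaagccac
At another join, Stat5b intron 5 (chr11:100660036-100662720) and Stat5a intron 6 (chr11:100726820-100735316), only 1 of 60 bases differs, so a read there has few bases that tell the copies apart.
Stat5b intron 5: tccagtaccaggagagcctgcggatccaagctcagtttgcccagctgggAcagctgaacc
Stat5a intron 6: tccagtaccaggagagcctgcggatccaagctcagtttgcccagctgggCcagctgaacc

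At the first, well-separated join Stat5b had 209 mock and 54 stimulated reads, a ratio of 0.221 (0.161 to 0.299), and Stat5a had 54 and 76, a ratio of 1.20 (0.838 to 1.74). At the near-identical join Stat5b had 74 and 47 reads, a ratio of 0.543 (0.369 to 0.794), and Stat5a 7 and 7. Over 6 matched joins that differ in at least 5 bases in every stretch of 82 bases (the longest overhang shared by at least 100 junctions in the files), Stat5b had 441 and 154 reads and was 3.35-fold lower (0.299, 0.247 to 0.360), while Stat5a had 119 and 145 (1.04, 0.812 to 1.34). Over the other 12 matched joins the ratios were 0.394 (0.345 to 0.450) and 0.878 (0.714 to 1.08), which lie closer together. Whether misplaced reads account for that was not tested.

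**Figure D4:**
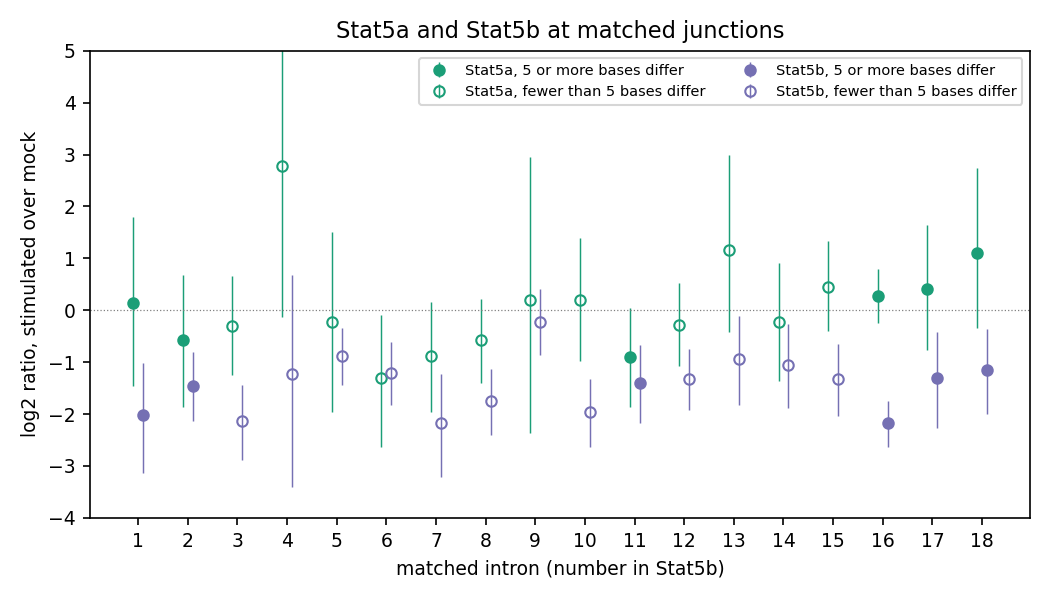
Log2 ratio (stimulated over mock) of Stat5a (green) and Stat5b (purple) at 18 matched exon joins, by Stat5b intron number, with exact 95% intervals. Filled points are joins where the copies differ in 5 or more bases in every stretch of the longest overhang. Stat5b lies below Stat5a at 17 of 18 joins. A bar that runs past the axis is clipped.

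Over all its junctions Stat5b (chr11:100644537-100711712, minus strand) had 1161 mock and 482 stimulated reads and was 2.82-fold lower (2.53 to 3.14), a log2 ratio of −1.49. Of its 17 junctions with 20 reads all lay below 1, and for 16 the interval excluded 1, from intron 16 at a log2 ratio of −2.18 up to intron 9 (43 and 43 reads) at −0.23. Jak1 and Stat5b had ratios that could not be told apart (0.908, 0.801 to 1.03, for Jak1 over Stat5b). Stat5a (chr11:100721891-100745147, plus strand) had 305 mock and 336 stimulated reads, a ratio of 0.942 (0.805 to 1.10), and was called neither higher nor lower. Its sign turned with the scaling: the log2 ratio was −0.09, and 0.15 under the trimmed mean of M values. Its junctions with 20 reads ran from intron 7 (19 and 9 reads, log2 −1.30) to intron 19 (6 and 15, log2 1.10), 8 below 1 and 5 above. The 9 introns nearest its 5′ end gave 0.716 (0.546 to 0.938) and the 9 nearest the 3′ end 1.09 (0.896 to 1.34), intervals that overlap. Introns 4 to 9 in that 5′ part differ from Stat5b in fewer than 5 bases in some stretch of the longest overhang. Some 3′ introns do too. At intron 7 all 40 bases compared match Stat5b intron 6, which had a ratio of 0.434 (0.284 to 0.652). Reads there could be placed on either copy, and whether misplaced reads lowered these values of Stat5a was not tested. Of the reads of this pair of genes Stat5b held 79.2% (77.0 to 81.2) in the mock library and 58.9% (55.5 to 62.3) in the stimulated library, so Stat5a over Stat5b was 2.65 times as high after stimulation (2.19 to 3.22). Over all junctions both genes thus had nearer to equal read numbers in the stimulated library, and Stat5b still held the larger share. That larger share was not seen at every join that separates the copies. Over the 6 joins that differ in at least 5 bases, stimulated reads were 154 for Stat5b and 145 for Stat5a. At the most-read of them they were 54 and 76.

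Stat4 (chr1:52065573-52163753, plus strand) answers interleukin 12 and directs T helper 1 differentiation. It had 919 mock and 458 stimulated reads and was 2.35-fold lower (2.09 to 2.63), a log2 ratio of −1.23. Under the trimmed mean of M values the log2 ratio was −0.99, just short of 2-fold, and the call was lost. All 20 of its junctions with 20 reads lay below 1, and 16 had an interval that excluded 1. The most-read was intron 21 (chr1:52159884-52162049) with 147 and 77 reads, the lowest intron 6 (20 and 7, log2 −1.74) and the highest intron 9 (33 and 28, log2 −0.46). Both ends gave nearly the same ratio, 0.425 (0.347 to 0.519) over 11 introns at the 5′ end and 0.426 (0.371 to 0.490) over 11 at the 3′ end. Its intron 3 is 51380 bp long (chr1:52070779-52122158) and had 19 mock reads and 0 stimulated reads, at least 5.46-fold lower by the limit of its interval and 7.40-fold lower when 3 reads stand in for the 0. It too was named for its 0 and falls short of the 20 reads that a call needs. The introns on either side of it, 2 and 4, still had 14 and 12 stimulated reads.

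Stat6 (chr10:127080306-127096850, plus strand), the factor for interleukin 4 and T helper 2 differentiation, had 879 mock and 1137 stimulated reads. Its ratio was 1.11 (1.01 to 1.21), a log2 ratio of 0.15. The interval excluded 1, but the difference did not reach 2-fold. That interval covers counting error only, and the spread between junctions of Stat6 was 2.98 times the counting variance. The trimmed mean of M values put it at 0.39. Of 19 junctions with 20 reads 13 lay above 1 and 6 below. The most-read, intron 19 (chr10:127095757-127096488), had 147 and 182 reads. The highest ratio was shared by intron 5 (12 and 36 reads) and intron 15 (37 and 111), each at a log2 ratio of 1.36, and the lowest was at intron 8 (68 and 47, log2 −0.76). Its reads made up 22.1% (20.9 to 23.5) of those of the 6 STAT genes in the mock library and 34.9% (33.3 to 36.6) in the stimulated library, where it was the most-read STAT gene. Stat5b, which had led with 29.2% (27.8 to 30.7), held 14.8% (13.6 to 16.1).

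Stat3 (chr11:100750075-100800569, minus strand) serves the receptors for interleukin 6, interleukin 21 and others and directs T helper 17 differentiation. It had 592 mock and 759 stimulated reads, a ratio of 1.10 (0.984 to 1.22), and was called neither higher nor lower. The log2 ratio was 0.13. The trimmed mean of M values gave 0.37, and it was −0.26 from its most-read junction alone, intron 14 (78 and 76 reads). Its junctions with 20 reads ran from intron 17 (14 and 11, log2 −0.57) to intron 12 (4 and 17, log2 1.86), 15 above 1 and 6 below. Stat3 and Stat6 had ratios that could not be told apart (0.991, 0.861 to 1.14, for Stat3 over Stat6). Stat3 lies next to Stat5a, with 4928 bp between their outermost junctions, so Stat5b, Stat5a and Stat3 stand in a row on chromosome 11 with ratios of 0.355, 0.942 and 1.10.

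The transcript of Stat3 ends in 2 known ways, and the join that separates them had reads in both libraries. From a donor at chr11:100751199 the shorter intron, of 295 bp, leads to the alpha form, which keeps the transactivation domain. The longer intron, of 345 bp, leads to the beta form, which lacks 50 bases and so reads on in another frame to a shorter tail. The lines below show both joins, 5′ to 3′ from GENCODE transcripts, with the 50 bases that the beta form lacks in capitals.
Stat3 alpha join: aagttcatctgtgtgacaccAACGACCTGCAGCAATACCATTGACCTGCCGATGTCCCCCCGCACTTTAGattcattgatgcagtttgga
Stat3 beta join: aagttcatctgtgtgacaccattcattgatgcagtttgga
In the mock library 9 of 34 reads from that donor took the beta join (26.5%, 12.9 to 44.4) and 25 the alpha join. In the stimulated library 2 of 32 did (6.25%, 0.766 to 20.8), and 30 took the alpha join. The beta join had a ratio of 0.190 (0.0200 to 0.918) and the alpha join 1.03 (0.584 to 1.82). The intervals of the shares overlap, and with so few beta reads the size of any difference is poorly known. The other Stat3 site with annotated alternatives, an acceptor at chr11:100751243 whose donors lie 3 bases apart, had the rarer join in 1 of 41 and 2 of 38 reads.

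Splice sites used by more than 1 junction were compared over the members in the same way. At 33 sites with at least 20 reads in each library, 0 junctions had shares that differed by 20 percentage points with intervals that did not overlap. Those sites lay in Jak1 and Stat5b (10 each), Stat6 (5), Stat4 (4), Stat3 (3) and Stat5a (1). After the Stat3 donor, the widest difference was at the donor of Stat5b intron 11, where 5 of 28 stimulated reads (17.9%, 6.06 to 36.9) and 0 of 52 mock reads (up to 6.85%) joined over the next exon to chr11:100652268, an unannotated skip. The remaining sites differed by 11.9 percentage points or less.

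Stat2 (chr10:127707774-127728283, plus strand), which joins Irf9 in the factor that answers type I interferon, was the least-read member with 114 mock and 83 stimulated reads. It was 1.61-fold lower (1.20 to 2.16), a log2 ratio of −0.68. Its interval excluded 1 but it did not reach 2-fold. Only 2 of its junctions had 20 reads, intron 4 (14 and 12, log2 −0.45) and intron 23 (9 and 15, log2 0.51), so its total rests on many junctions with few reads. Irf9 had 131 and 135 reads, a ratio of 0.881 (0.688 to 1.13). Of the 36 pairs among the 9 members, 26 had a ratio of their ratios whose interval excluded 1. Pairs of other genes were not counted, so this number cannot be called particular to the members, and the intervals cover counting error only.

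The other genes of the pathway were listed by role, and 79 measured genes outside the members gave 25 called higher and 17 called lower; their median log2 ratio was 0.19. These counts and those of each list below are to be read against 17.1% and 25.1% of all genes; the count of lower genes is no larger than that share would give. The lower calls of Cbl, Hgs, Xpo1 and Ifnar2 named below come short of 2-fold under the trimmed mean of M values.

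**Figure D5:**
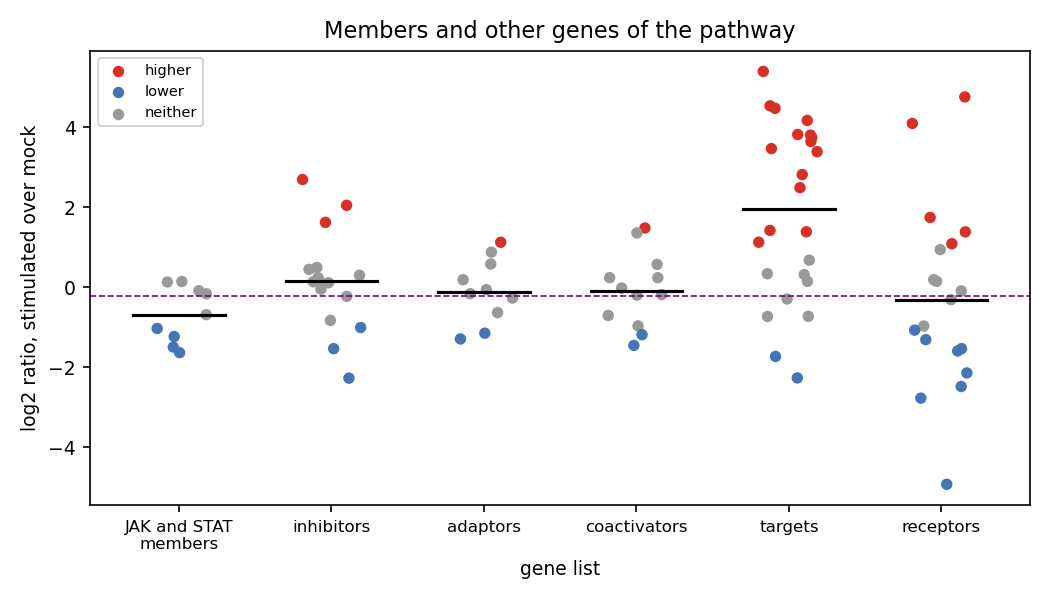
Log2 ratio (stimulated over mock) of the 9 members and of the measured genes of 5 lists of the pathway, coloured by call. Black bars are medians and the dashed line is the median of all genes tested. The targets have a median of 1.96 and 15 genes called higher, while the members have none. Members and lists were chosen with earlier results of these data known.

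Among inhibitors of the pathway 3 of 16 measured genes were higher and 3 lower, near the shares of all genes (17.1% and 25.1%), with a median of 0.15 (log2). The list held 25 names, and 18 of them had a named junction. Of the Socs suppressor genes listed only Socs7 had one (36 and 36 reads), so these counts leave out the others. Cish, a suppressor that cytokine signals induce, had 7 and 53 reads and was 6.48-fold higher (2.93 to 16.9). Also higher were Sh2b3, an adaptor that restrains JAK signals (63 and 305 reads, 4.14-fold), and the phosphatase gene Ptpn6, which encodes SHP-1 (224 and 807 reads, 3.08-fold). Pias3, which encodes an inhibitor of Stat3, had 33 and 8 reads and was 4.82-fold lower (2.18 to 12.1), and Pias1 (2.89-fold) and the ubiquitin ligase gene Cbl (2.01-fold) were also lower. The phosphatase gene Ptprc, which encodes CD45, had the most reads, 6960 and 11473, at 1.41-fold.

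Among 10 measured adaptors and ubiquitin ligase parts 1 was higher, Eloc (29 and 74 reads, 2.18-fold), and 2 were lower, Tnfaip3 (678 and 324, 2.45-fold) and Hgs (375 and 198, 2.21-fold); the list's median was −0.11 (log2). Among 12 coactivators and transport factors 1 was higher, the import factor gene Kpna1 (86 and 281 reads, 2.79-fold), and 2 were lower, the coactivator gene Ncoa1 (124 and 53, 2.74-fold) and the export factor gene Xpo1 (412 and 212, 2.27-fold). The acetyltransferase gene Crebbp had the most reads of that list, 567 and 407, a ratio of 0.614 (0.539 to 0.699). The median of the list was −0.10.

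Genes known as STAT targets stood on the other side of the members: 15 of 24 measured were higher and 2 lower, and the list's median was 1.96 (log2). Many of them also answer the T cell receptor by other routes, so the list does not measure STAT activity. Both the list and the members were chosen with earlier results of these data known, so the contrast is a description only. Irf8 was highest (11 and 542 reads, 42.1-fold), Il2ra had the most reads (73 and 1537), and Ccnd3, a G1 cyclin gene, was lowest (111 and 27 reads, 4.81-fold lower). The other gene called lower was Batf (17 and 6 reads, 3.31-fold, 1.25 to 10.3), a call that ends when the interval is widened for the spread of a gene's junctions.

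Chains of cytokine receptors that signal through JAK kinases, whether or not the chain itself holds a kinase, were higher in 5 of 19 measured genes. They were lower in 8, and the list's median was −0.31 (log2). The common gamma chain gene Il2rg, the partner of Jak3, had the most reads, 658 and 2010, and was 2.61-fold higher (2.39 to 2.86), while Jak3 stood at 0.893. Il12rb1, a chain of the interleukin 12 receptor that binds Tyk2, had 3 and 95 reads (27.1-fold higher, 8.99 to 134). The other chain of that receptor, Il12rb2, had 18 and 17 reads (0.808, 0.391 to 1.66) and was called neither, while Tyk2 and Stat4 were lower. The lower calls of Tyk2 and Stat4 are both lost under the trimmed mean of M values. The interferon receptor chains Ifnar1 (334 and 135 reads, 2.89-fold), Ifnar2 (88 and 49, 2.10-fold), Ifngr1 (1149 and 241, 5.57-fold) and Ifngr2 (140 and 24, 6.82-fold) were all lower, as was Jak1, which serves both kinds of interferon receptor. Chains of other receptors that Jak1 serves went both ways. Il21r was higher (180 and 448 reads, 2.13-fold), Il4ra (1.11) and Il6st (0.940) were called neither, and Il6ra was lower (377 and 100, 4.41-fold). Il7r, whose signals pass through Jak1, Jak3 and the Stat5 factors, was lowest of the list with 1895 and 73 reads.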

How the data were processed

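RNA sequencing of 1 mock and 1 stimulated library was used. The deposited files list splice junctions found by TopHat, per the file headers, and the values in their score column are raw counts of junction reads, which were taken as deposited. TopHat and Cufflinks are named with the build mm9 in the submitters' processing notes; for their versions, settings and filters, nothing is given in the sources used here. A junction that the aligner missed or moved in 1 library alters that gene's count, and reads inside exons are not counted. Mean insert sizes were 211.79 bp (mock) and 199.014 bp (stimulated), per the labels' protocols.

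No mm9 annotation was used. Junctions were named from GENCODE M21 (GRCm38) when chromosome, strand, intron length and the exact distance to another junction of the same transcript matched, and no coordinate was converted. Of 124183 junctions 77.0% got a name, holding 95.9% of mock and 96.1% of stimulated reads, and 95 matched more than 1 gene and were left out. Readthrough gene models were left out of the naming, a choice made after seeing the data. Positions are mm9, from 1. Introns are numbered in the most used transcript, the protein-coding one whose introns held the most reads over both libraries.

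Ratios, intervals and calls were computed in Python 3.11.15 with numpy 2.4.6, pandas 2.3.3 and scipy 1.17.1, figures with matplotlib 3.10.9, and the naming and calls were tested on simulated data. With 0 reads in a library, a ratio was computed against 3 reads. Alternatives changed the scaling, the junctions summed, the read minimum, the fold, and the interval, widened by the spread between junctions of a gene (2.02 times the counting variance over 4928 genes). The text names every member. Of each list it names the genes with the highest ratio, the lowest ratio and the most reads. Of each member's junctions it names the most-read, the highest and the lowest with 20 reads, and those with 10 or more reads against 0. Other genes and junctions were added after their values were seen. The members and lists were chosen with earlier results of these data known.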

Additional observations from a re-analysis of the deposited data

How the results depend on the processing

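With the trimmed mean of M values 2 members were called lower (Jak1 and Stat5b), and the log2 ratios were −1.39 for Jak1, 0.37 for Stat3, −0.99 for Stat4, 0.15 for Stat5a, −1.25 for Stat5b and 0.39 for Stat6. With the median of ratios they were −1.41 for Jak1, 0.36 for Stat3, −1.005 for Stat4, −1.27 for Stat5b and 0.37 for Stat6, and 3 members were called lower, without Tyk2. The most-read junction alone gave −1.89 for Jak1, −0.89 for Jak3, −0.30 for Tyk2, −0.26 for Stat3, 0.27 for Stat5a and −2.18 for Stat5b, and again 3 members. Junctions that differ between Stat5a and Stat5b, a setting added after seeing the data, gave −1.74 for Stat5b. A fold of at least 4 left 0 members called lower, and 16 higher and 6 lower among the other pathway genes in place of 25 and 17. A fold of at least 1.5 added Stat2 to make 5. Widened intervals, a minimum of 50 reads and no minimum kept the 4 calls, and Jak1 and Stat5b were called lower in all settings but the 4-fold one. The trimmed mean of M values and the median of ratios set no change at log2 ratios of −0.24 and −0.23, so each raises every log2 ratio by a constant. The cause of the other shifts was not tested, beyond the fewer junctions counted or the larger fold asked.

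Depth limits Stat2, Jak3 and Tyk2 most, with 83 to 232 reads per library. No paired analysis was possible because each group has 1 library. The spread between animals or cultures is unknown, and the pooled spleens do not supply it.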
